A study of Mus musculus with 8 samples.

Results

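Of the stretches of mouse liver chromatin called open in control livers but missing from the call in Alb-D2KO livers, 1587 lay inside an intron at a distance of over 5 and up to 50 kb from the nearest transcript start. They were taken from the deposited list of 8031 control-only regions, here called lost regions, and made up 19.8% of that list (95% Wilson interval 18.9 to 20.6%) and 49.3% of the 3216 lost regions in introns. A member had to overlap a gene body, no exon and no window of 200 bp either side of a start, and the distance ran from the edge of the region to the closest start of any gene. The control call held at least 22368 regions by its numbering, so that 35.9% of it was in the control-only list. The members were chosen from that list, and nothing about them is read from this share.

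The regions come from ATAC-seq, in which a transposase inserts sequencing adapters into accessible DNA, on frozen adult liver of C57BL/6 mice (C57BL/6J in the study's methods). Each library was made from 50000 nuclei, with 4 control libraries, whose titles carry the word cre, and 4 Alb-D2KO libraries. In Alb-D2KO mice a floxed Dio2 gene is deleted by Cre recombinase under the albumin promoter, which is active in hepatocytes. The study describes the inactivation as specific to hepatocytes, and the lists do not show which liver cells lost the gene. The libraries of a genotype were called together, and a region counts as lost when it overlapped no region of the Alb-D2KO call. The lists therefore carry no value per animal, and how much signal remained in Alb-D2KO liver at a lost region was not analysed here.

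Dio2 encodes the type 2 deiodinase (D2), which converts the prohormone thyroxine to the active hormone T3, and in liver it is known to be expressed only briefly around birth. T3 acts through nuclear receptors that bind DNA together with a retinoid X receptor, on repeated half-sites of the letters AGGTCA, and that recruit corepressors when hormone is absent. Introns are known to hold many enhancers, which are stretches of open DNA bound by combinations of factors. In hepatocytes these include HNF4A, the C/EBP, FOXA and NFI families and several nuclear receptors.

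Shown next is the sequence from 100 bp before to 100 bp after the summit, the point of highest signal, for 8 members that carry the results described further on. They are on the plus strand of mm10, and capitals mark matches to the motifs searched. The first pair comes from Pde4dip and Mgll, the members with the highest signal of all, followed by Abca1, which encodes the cholesterol efflux pump. In Pde4dip the capitals are an HNF4A motif and then a C/EBP match overlapping an NFI half-site. In Mgll they are an NFI half-site 5 bp from the summit, and in Abca1 a C/EBP match.
Pde4dip, chr3:97844850-97845050: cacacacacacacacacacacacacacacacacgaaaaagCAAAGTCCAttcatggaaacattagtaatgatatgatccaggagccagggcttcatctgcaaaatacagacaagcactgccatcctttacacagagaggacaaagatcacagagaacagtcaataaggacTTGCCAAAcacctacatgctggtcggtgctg
Mgll, chr6:88732244-88732444: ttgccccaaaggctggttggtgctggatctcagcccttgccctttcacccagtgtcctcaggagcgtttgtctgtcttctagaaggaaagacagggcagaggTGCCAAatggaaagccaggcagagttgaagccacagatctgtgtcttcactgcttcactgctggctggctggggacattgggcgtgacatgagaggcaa
Abca1, chr4:53139604-53139804: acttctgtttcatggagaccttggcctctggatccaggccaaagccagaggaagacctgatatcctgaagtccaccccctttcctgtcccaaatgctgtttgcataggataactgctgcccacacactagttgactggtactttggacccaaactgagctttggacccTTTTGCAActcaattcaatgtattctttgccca

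The next pair shows the member of highest signal in Thrb, the gene of the thyroid hormone receptor beta, and in Rxra, the gene of the retinoid X receptor alpha. In Rxra the capitals are a CTCF core match and an NFI half-site. The window in Thrb held none of the motifs and has no capitals.
Thrb, chr14:17899849-17900049: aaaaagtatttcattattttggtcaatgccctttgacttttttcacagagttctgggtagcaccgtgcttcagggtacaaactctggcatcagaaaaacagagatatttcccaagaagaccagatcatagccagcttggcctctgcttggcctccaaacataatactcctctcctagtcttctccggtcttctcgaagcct
Rxra, chr2:27699670-27699870: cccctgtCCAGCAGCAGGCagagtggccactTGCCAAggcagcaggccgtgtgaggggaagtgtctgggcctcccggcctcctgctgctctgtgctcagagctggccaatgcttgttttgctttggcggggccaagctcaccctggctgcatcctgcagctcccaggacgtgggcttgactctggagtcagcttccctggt

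The last group shows motif combinations. The window in Nfib, the gene of a nuclear factor I protein, held 4 NFI half-sites. The window in Foxo3, the gene of a forkhead factor restrained by insulin, held an HNF4A motif, a CTCF core match and a GC box. The window in Dnaja3, the gene of a mitochondrial co-chaperone, was the one member with a perfect DR4, a pair of half-sites 4 bases apart, which is the arrangement bound by thyroid hormone receptors. It held this DR4 at 2 places, 30 bp apart, both within a run of the repeated letters AGGTC and AGGAC. A GRE-like match, an E-box and a C/EBP CRE-like match followed.
Nfib, chr4:82404402-82404602: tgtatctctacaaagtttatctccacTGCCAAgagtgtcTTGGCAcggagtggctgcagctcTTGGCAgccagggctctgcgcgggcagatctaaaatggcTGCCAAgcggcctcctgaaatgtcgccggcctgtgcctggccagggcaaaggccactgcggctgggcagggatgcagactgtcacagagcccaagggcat
Foxo3, chr10:42225649-42225849: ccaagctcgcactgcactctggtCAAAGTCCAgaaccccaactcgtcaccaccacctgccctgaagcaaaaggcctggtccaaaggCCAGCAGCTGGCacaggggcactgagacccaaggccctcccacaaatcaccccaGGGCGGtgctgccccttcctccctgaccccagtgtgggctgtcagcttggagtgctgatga
Dnaja3, chr16:4702736-4702936: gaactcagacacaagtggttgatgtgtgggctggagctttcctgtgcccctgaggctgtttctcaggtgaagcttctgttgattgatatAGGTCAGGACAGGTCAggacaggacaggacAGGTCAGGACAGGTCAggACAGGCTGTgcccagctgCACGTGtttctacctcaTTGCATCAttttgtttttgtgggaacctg

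The signal of a region is the AUC, the area of its −log10 significance curve above the calling threshold in the pooled control call. It was used to rank regions, and measures how clearly a region was called and not how much it changed. Among the 1587 members the AUC ran from 200 to 811, with a median of 271 and quartiles of 230 and 334. The list starts at an AUC of 200, and 63.6% of the members were below 300, so that most were close to the smallest area that was called. The median width was 310 bp, from 157 to 938 bp. Across members the AUC followed the width with a Spearman's rho of 0.51, which it must in part since the area grows with the length, whereas rho was −0.01 with the distance from a start and 0.04 with the GC content. These values describe regions that share libraries and one call.

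The highest AUC was that of the Pde4dip region at 811, in the first of 45 introns of a gene for a scaffold protein of the Golgi and centrosome. It lay 19.7 kb from the nearest start. Mgll, which encodes the monoacylglycerol lipase, followed at 781 with a region 938 bp wide, the widest member. Ctif, a translation factor gene, had 763. The areas of Man2a1 (an α-mannosidase of N-glycan processing) and Mtss1 were both 703, and that of Abca1 was 698. Lpp had 687, Lrp5, a Wnt co-receptor gene, 677, Gbf1 637 and Abhd6, the gene of another monoacylglycerol hydrolase, 636. Each of these 10 lay in a different gene, and Mgll and Abca1 are in the lipid metabolism list used below.

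The number of lost regions per length of sequence fell with distance from a start. Within 5 kb of a start, intronic sequence held 5.03 lost regions per Mb. The members gave 2.59 per Mb of the 613 Mb of intronic sequence between 5 and 50 kb, and introns farther out held 0.661 per Mb. Inside the 5 to 50 kb window the density fell from 3.49 per Mb at 5 to 10 kb through 2.41 at 15 to 20 kb to 1.21 at 45 to 50 kb. Intergenic sequence in the same window held 1.86 per Mb, and in each 5-kb bin its density was below that of introns. The median AUC did not fall with the density: it was 273 in members at 5 to 10 kb, 266 at 10 to 20 kb and 271 at 20 to 50 kb. Densities are counts over annotated sequence, and how all control regions spread over distance was not analysed here.

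**Figure D1:**
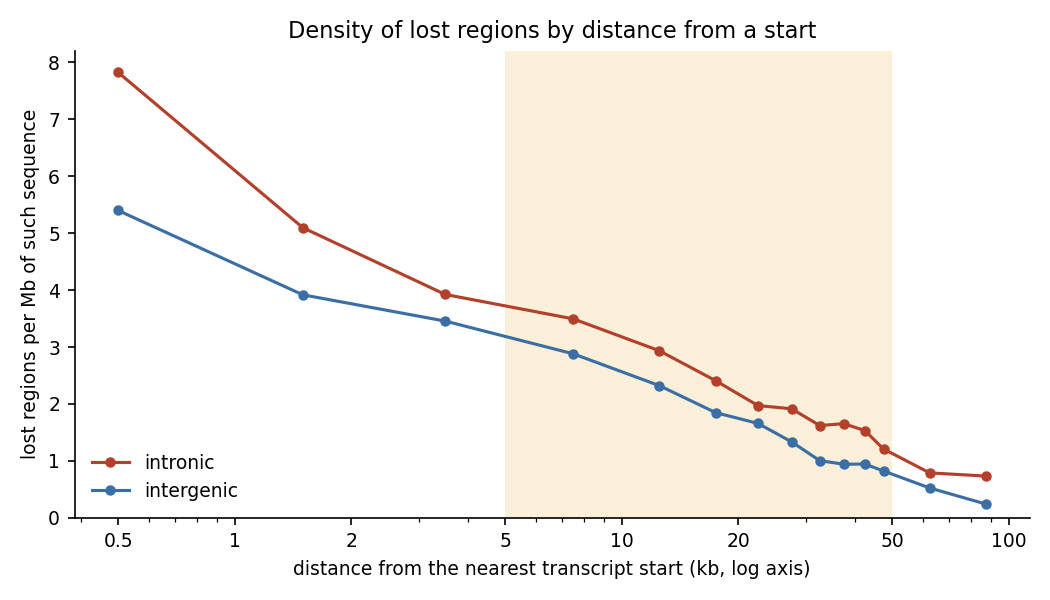
Lost regions per Mb of intronic (red) and intergenic (blue) sequence against the distance from the nearest transcript start in kb on a log axis, each point a distance bin, with 5 to 50 kb shaded. Both curves fall with distance, and inside the shading the intronic density drops from 3.49 to 1.21 per Mb.

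The members lay closer to the inner limit than to the outer one. The median distance was 11.6 kb, with quartiles of 7.65 and 19.9 kb. In all, 640 members (40.3%) were within 10 kb, 554 (34.9%) between 10 and 20 kb, and 393 (24.8%) farther out. Just inside the inner limit were regions in Mllt1 at 5001 bp (AUC 228) and Tiprl at 5012 bp (AUC 400), and just outside it Dhx32 at 5000 bp (AUC 327) and Gm6657 at 4995 bp (AUC 203). At the outer limit the last members were in Prkce at 49922 bp (AUC 409) and Sgip1 at 49816 bp (AUC 209), while Gse1 at 50149 bp (AUC 291) and Fras1 at 50837 bp (AUC 344) fell outside.

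Position within genes is given as counts of members. The share of intronic sequence in the distance window that lay in first introns, last introns or protein-coding genes is not set beside them. The counts therefore do not show whether members favoured any of these positions. An intron of a protein-coding gene held 1434 members (90.4%), and 153 lay in non-coding genes alone. The first intron held 579 (36.5%), and 190 (11.97%) were in the last one. The median length of the introns that held a member was 28.4 kb. The nearest start belonged to the gene holding the member in 1059 cases (66.7%), so that for the remainder the nearest start was that of another gene, often a non-coding one inside the host. Members in first introns had a median AUC of 277, and those in later introns of 268.

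By chromosome, the density of members on the autosomes ran from 1.80 per Mb of such intronic sequence on chromosome 7 to 4.28 on chromosome 19. Chromosome X held 3 members, or 0.109 per Mb. From the first to the last lost region of X there were 114 numbered control regions, of which 40 (35.1%) were lost. Counted in the same way, the autosomes had 30.05 to 44.5%. Control regions outside these ends cannot be assigned to a chromosome from the list. The total on X and the share of it that was lost are therefore not known. The lost regions of X were less often members, at 7.5% against 13.2% on chromosome 7 to 28.7% on chromosome 14.

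Members were compared with the 3 most similar sets of lost regions by Welch's test over regions, with p-values adjusted over 9 comparisons. Regions are not replicate animals, and these tests measure spread between regions of one call. The AUC of members was 0.989 times that of intronic regions within 5 kb (95% interval 0.970 to 1.01, n = 1587 and 1519 regions, adjusted p = 0.46). Against intronic regions over 50 kb from a start (n = 110 regions) the ratio was 0.985 (0.935 to 1.04, adjusted p = 0.63). Against intergenic regions at 5 to 50 kb (n = 1499 regions) it was 0.992 (0.973 to 1.01, adjusted p = 0.53). With distances taken from the region midpoint, the difference from intronic regions within 5 kb passed the test, at −0.035 on the log2 scale (n = 1694 and 1842 regions, adjusted p = 0.017).

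Members were wider than intergenic regions at the same distance by a factor of 1.05 (95% interval 1.02 to 1.08, n = 1587 and 1499 regions, adjusted p = 0.0020). Among regions with an AUC of at least 300 this difference was no longer past the threshold (n = 578 and 575 regions, adjusted p = 0.49). The width ratio was 0.987 against intronic regions within 5 kb (0.961 to 1.01, n = 1587 and 1519 regions, adjusted p = 0.53). It was 1.003 against those over 50 kb (0.941 to 1.07, n = 1587 and 110 regions, adjusted p = 0.91). By midpoint distances, the log2 width of members minus that of intronic regions within 5 kb was −0.0824 (n = 1694 and 1842 regions, adjusted p = 8.4e-05).

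Base composition differed by distance. In the printed kind of window around the summit the GC content was 49.9% ± 5.81 in members (mean ± SD over regions). In intronic regions within 5 kb the mean was 51.4%, and members minus these gave −1.56 percentage points (95% interval −2.02 to −1.11, n = 1587 and 1519 regions, adjusted p = 1.5e-10). It was 1.72 points above that of intronic regions over 50 kb, at 48.2% (0.569 to 2.86, n = 1587 and 110 regions, adjusted p = 0.0083). This difference did not pass among regions with an AUC of at least 300 (n = 578 and 43 regions, adjusted p = 0.12). It was also below that of intergenic regions at 5 to 50 kb, at 50.6% (n = 1587 and 1495 regions, adjusted p = 0.0020).

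**Figure D2:**
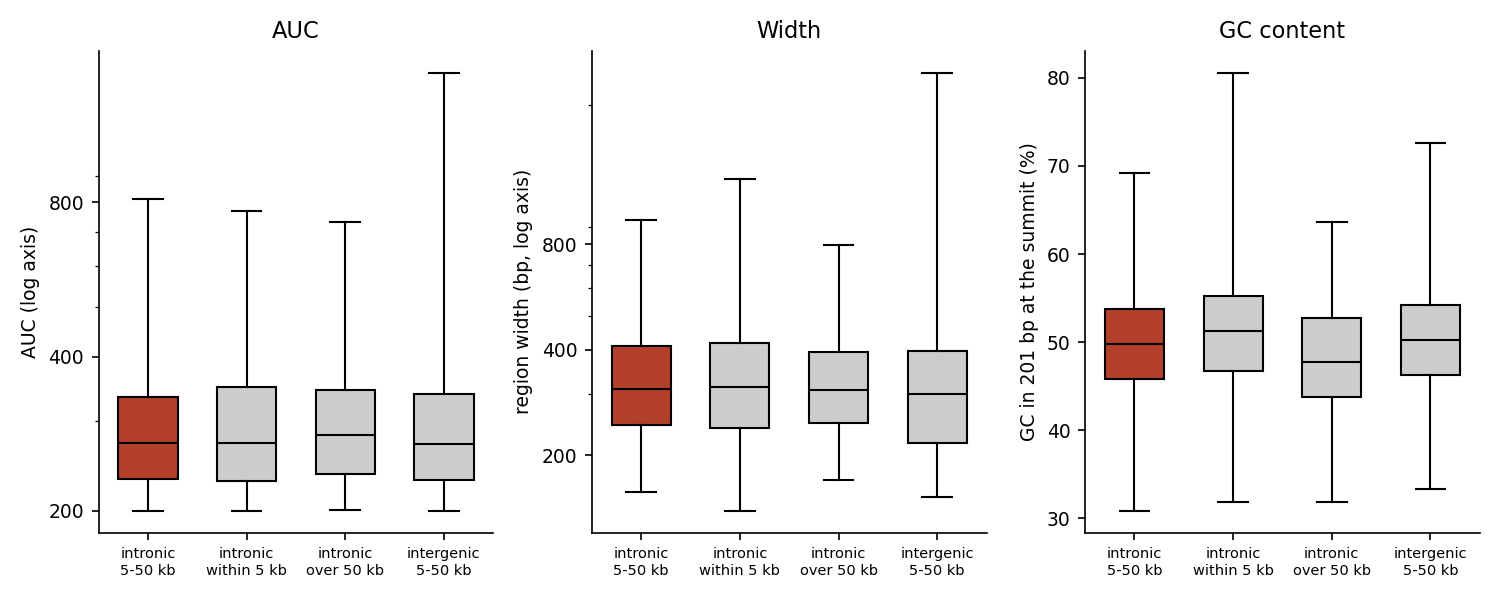
AUC, width in bp (both on log axes) and GC content in percent for lost intronic regions 5 to 50 kb from a start (red) and the 3 sets they were compared with (grey). Boxes span the quartiles with the median as a line, whiskers reach the lowest and highest region, and the AUC boxes of all 4 sets overlap almost wholly.

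The share of the class was similar in both directions of change. Of the 250 regions open only in Alb-D2KO liver, 47 (18.8%) were intronic at 5 to 50 kb, against 19.8% of the control-only list. The difference was 0.96 percentage points (95% Newcombe interval −4.41 to 5.41), which includes 0. Among regions with an AUC of at least 300 the difference turned to −9.94 points (−28.1 to 3.01).

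Around the summits, GC content was raised and masked repeats were fewer than farther out, with the repeats still reduced some 300 bp away. Windows of the same length centred 1000 bp to either side had a mean GC content of 46.0 and 45.8%, and masked repeats filled 23.0 and 24.4% of them against 9.65% at the summit. CpG dinucleotides averaged 3.09 per window at the summit and 2.22 and 2.16 in the flanks. For comparison, lost promoter regions averaged 12.2 CpG and 60.3% GC. No masked base was found in the summit windows of 796 members (50.2%), and 155 (9.77%) had no CpG. The member in Mlxipl, the gene of the glucose-responsive factor ChREBP, was the other extreme, with repeats over 96.0% of its window.

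**Figure D3:**
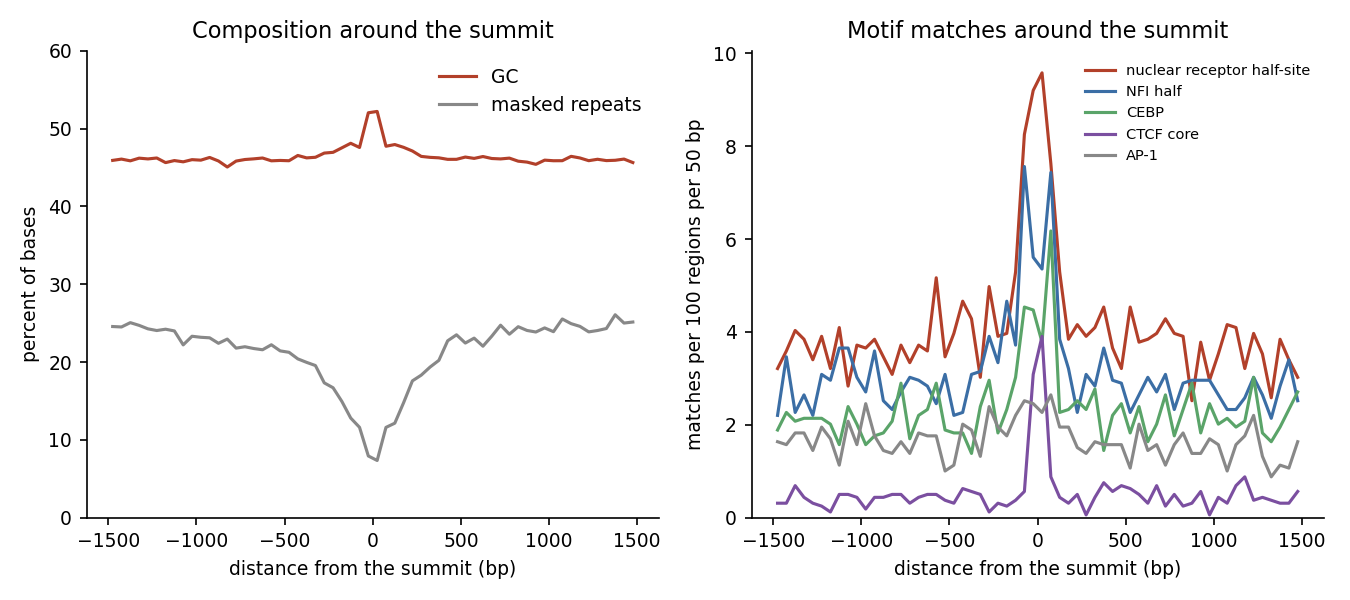
GC content and masked repeats (left, percent of bases) and motif matches (right, per 100 regions in each 50-bp bin) against distance from the summit in bp, over the 1587 lost intronic regions 5 to 50 kb from a start. Repeats drop and the nuclear receptor, NFI, C/EBP and CTCF matches rise at the summit, while the AP-1 line rises little.

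Exact matches to 19 motifs were counted on both strands. A match is a description of letters, not of a bound site, and the flanks differ in base composition. The nuclear receptor half-site AGGTCA was in 28.7% of members (95% Wilson interval 26.5 to 30.9%), against 12.6% of their flanks (11.5 to 13.8%). It was found in 24.6% of lost intronic regions within 5 kb, 32.7% of the 110 over 50 kb, 24.4% of the intergenic ones at 5 to 50 kb, 14.7% of lost promoter regions and 23.8% of all lost regions. A perfect DR4 was in 1 member, that of Dnaja3 shown above (AUC 444, 16.1 kb from a start), and a DR4 without its first base was in 4. Of the 3174 flank windows, 1 held a perfect DR4 and 4 a DR4 without its first base. Masked repeats filled 22.9% of the Dnaja3 window, where the DR4 copies lie in a run of short repeated units.

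Motifs of several hepatocyte factors were also more frequent at the summits. HNF4A, a nuclear receptor central to hepatocyte identity, was searched as CAAAGTCCA and was in 2.90% of members against 0.221% of flanks, the highest ratio of those tried with 10 or more members (13.1). It was in 3.09% of intronic regions within 5 kb, 3.21% of intergenic ones at 5 to 50 kb and 2.37% of all lost regions. The C/EBP motif TTGCNNAA, bound by a family that drives liver maturation, was in 16.8% against 7.56%, and in 14.4% of all lost regions. FOXA (TGTTTAC), of the forkhead factors that open liver chromatin, was in 6.87% against 2.96%. It was in 4.55% of intergenic regions at 5 to 50 kb, 4.74% of intronic ones within 5 kb and 7.27% of the 110 intronic ones over 50 kb. The NFI half-site TTGGCA was in 22.5% against 11.2%, and in 17.6% of all lost regions. In the intronic regions over 50 kb the C/EBP and NFI shares were higher than in members, at 23.6 and 27.3%. STAT5, which carries the growth hormone signal, was searched as TTCCNGGAA and was in 1.64% against 0.536%. A relaxed DR1, a pair of half-sites 1 base apart, was in 0.189% of members, 0.158% of flanks and 0.362% of all lost regions. The HNF1 motif was in 1 member and 0 flank windows.

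CTCF, an architectural factor at loop anchors, went the other way between classes. Its core motif was in 8.25% of members (7.0 to 9.71%), above the 1.32% of flanks and below the 15.1% of intergenic regions at the same distance and the 10.2% of introns within 5 kb. Promoter motifs were infrequent: the GC box GGGCGG was in 5.48% of members and 39.9% of lost promoter regions, and the ETS motif CCGGAA in 2.58% and 13.0%. The GRE-like motif ACANNNTGT was close to its flanks, at 7.88 and 6.71%. AP-1 (TGANTCA), of Fos and Jun proteins, was in 9.45% of members and 6.52% of flanks.

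**Figure D4:**
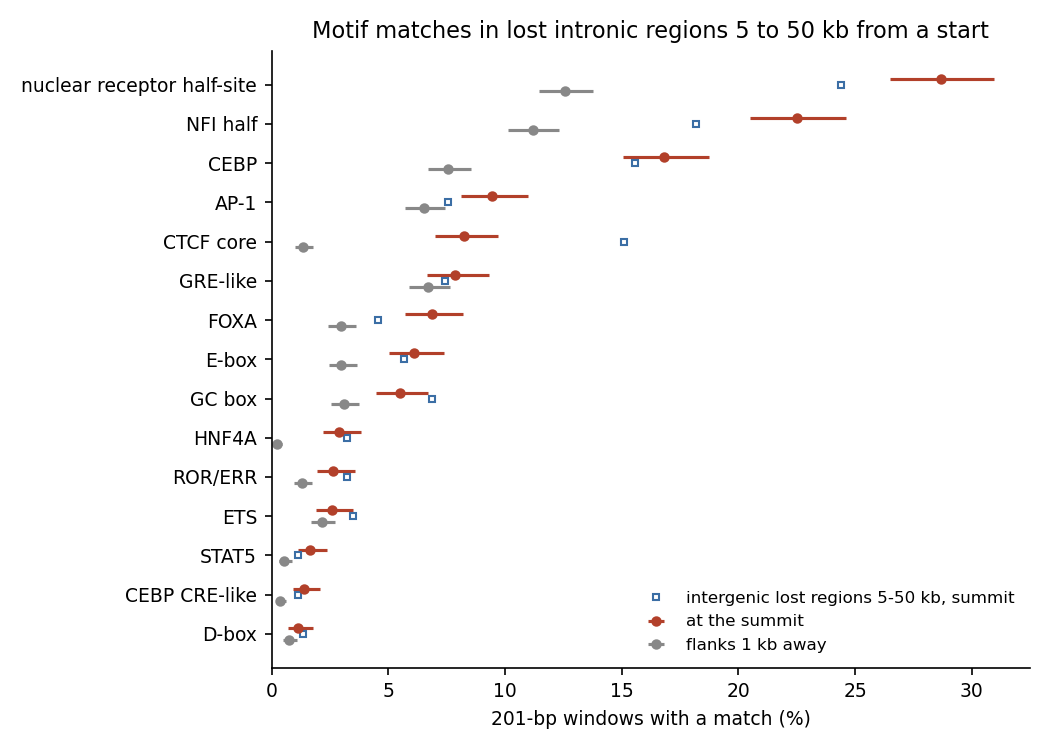
Percent of windows of 100 bp either side of a centre with a match for motifs found in 10 or more members, at the summit (red) and in the flanks 1 kb away (grey), with 95% Wilson intervals, and in lost intergenic regions 5 to 50 kb from a start (blue squares). The red points lie above the grey ones, and the CTCF square at 15.1% lies far above the 8.25% of members.

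Members were spread over many genes. Of 13238 protein-coding genes with intronic sequence 5 to 50 kb from a start, 1011 (7.64%) held at least 1 member. In 739 of them there was 1 member, in 173 there were 2, and 99 held 3 or more. Genes with a member had a median of 52.1 kb of such sequence, the others 14.4 kb, so that genes with a member were also the longer ones. A lost promoter region was also present in 165 of the 1011 (16.3%), against 6.18% of the 12227 genes without a member. The gap varied between genes of different length. With 5 to 10 kb of such sequence these shares were 9.62 and 6.43%, with 10 to 20 kb 10.3 and 7.28%, with 20 to 40 kb 15.4 and 5.28%, with 40 to 80 kb 13.6 and 6.83%, and with over 80 kb 21.4 and 5.23%. Under 5 kb they were 25.9% of just 27 genes and 5.99%. Genes with a member had an open region in control liver by selection, which the others need not have had. How many genes of either group had an open promoter region there was not analysed here, so the gap cannot be read as joint loss.

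By number of members, the model Gm20388 came first with 27, but it spans 4.43 Mb of chromosome 8 and overlaps many other genes. It was the sole gene around 10 of these regions, and without it the number of members was 1577. Nfib and Zmiz1, the gene of a PIAS-like coregulator, followed with 8 each. Itpr1, which encodes the endoplasmic reticulum calcium channel gated by inositol trisphosphate, held 7. Arhgef3, Gng7 and Shb held 6 each. In Gng7, which encodes a G protein gamma subunit, the 6 members had areas of 349, 457, 240, 304, 273 and 202 in a gene of 66.3 kb.

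Lost regions were often next to each other. The pooled control call numbers its regions along the genome, so that a number skipped by the list is a region that was kept. Of the members, 70.3% (68.0 to 72.5%) had a lost region as 1 or both of their direct neighbours. The same held for 63.7% of intronic regions within 5 kb, 65.0% of intergenic regions at 5 to 50 kb and 61.5% of promoter regions. Of all neighbours of members 46.2% were lost, beside 35.9% of the whole control call. The share of lost neighbours was 40.6% for intronic regions within 5 kb, 43.1% for intergenic regions at 5 to 50 kb and 40.8% for promoter regions. The whole control call includes promoter regions, where the study reports a smaller reduction than in introns, exons or intergenic areas. The class of the neighbours was not analysed here, so the distance from 35.9% cannot be read as grouping of losses. Among 449 successive pairs of members in 1 gene, with a median gap of 13.5 kb, 338 (75.3%) had no kept region between them.

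Runs differed between single genes. In Gng7, the 6 lost regions were numbered one after another, with none kept between. Nfib held 13 lost regions of all classes, with 11 lost and 2 kept between its first and last. Zmiz1 had 8 lost and 5 kept between the ends of its run, and Itpr1 6 lost and 2 kept. Over 292 protein-coding genes with a member and at least 3 lost regions, 617 of 938 regions between the outermost lost ones (65.8%) were lost and 321 kept. Genes enter this count by having several lost regions, which raises the share. The same holds for Gng7, Nfib, Zmiz1 and Itpr1, which were named for their many members.

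Among genes of thyroid hormone signalling, 3 of 27 with suitable introns (11.1%) held a member, beside 7.64% of all protein-coding genes. These 3 held 11 members, or 7.14 per Mb over the list, beside 2.77 per Mb over all protein-coding genes. The value per Mb thus rests on 3 genes. Thrb, the receptor gene, held 4 members with areas of 285, 315, 455 and 310, spread over its first and second introns. The 4 had consecutive numbers in the control call, so that no kept region lay between them. The first and last of them each held an HNF4A motif and an NFI half-site, and the last a nuclear receptor half-site as well. Rxra held 3 members with areas of 250, 343 and 273, at 10.7, 9.25 and 9.72 kb from a start, all in its first intron. Neither Thrb nor Rxra had a lost promoter region.

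Dio2 itself, at chr12:90724552-90738438, has 3210 bp of intronic sequence in the distance window and held no member. The closest one lay in Ston2, 930 kb away. The lists cannot show whether Dio2 was deleted, since they hold no reads over the floxed sequence.

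Hepatocyte transcription factors held members most often of the 9 gene lists. Of 38 such genes with suitable introns, 22 (57.9%) held 48 members, or 16.1 per Mb, beside 7.64% and 2.77 per Mb over all protein-coding genes. The listed genes had a median of 47917 bp of such sequence. Of all protein-coding genes with 40 to 80 kb of it, 14.2% held a member. How many open regions the listed genes had in control liver was not analysed here. A lost promoter region was also present in 10 of the 22. The strongest was the Mlxipl region at 629. Tead1, a Hippo pathway effector gene, had areas of 233 and 558, and Zbtb20, a repressor of fetal liver genes, 486. Nr1i2, the gene of the xenobiotic receptor PXR, held 5 members in its first intron, at 5.65 to 14.7 kb from its start, with areas of 459, 407, 332, 291 and 358. Nr1i2 held 6 lost regions of all classes, and between the first and last of them 4 regions were lost and 1 was kept.

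The nuclear factor I family was represented by all 4 of its genes. Nfib held 8 members with areas of 203 to 441, Nfix 4 of 217 to 283, Nfia 2 of 230 and 241 and Nfic 1 of 236. Other nuclear receptor genes included Nr5a2 (LRH-1, areas 204 and 378), Nr1h4 (the bile acid receptor FXR, 330 and 251), Nr3c1 (the glucocorticoid receptor, 381), Rora (310, 220 and 212), Ppara (the fatty acid receptor, 296) and Ppard (225). Ppargc1b, a coactivator of mitochondrial genes, held 4 with areas of 260, 274, 292 and 444. Forkhead factor genes were Foxo3 (414, 269 and 290), Foxo1 (342) and Foxa3 (351), and the homeobox gene Onecut2 held 1 (225). Gata4 held 2, with 380 and 291.

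**Figure D5:**
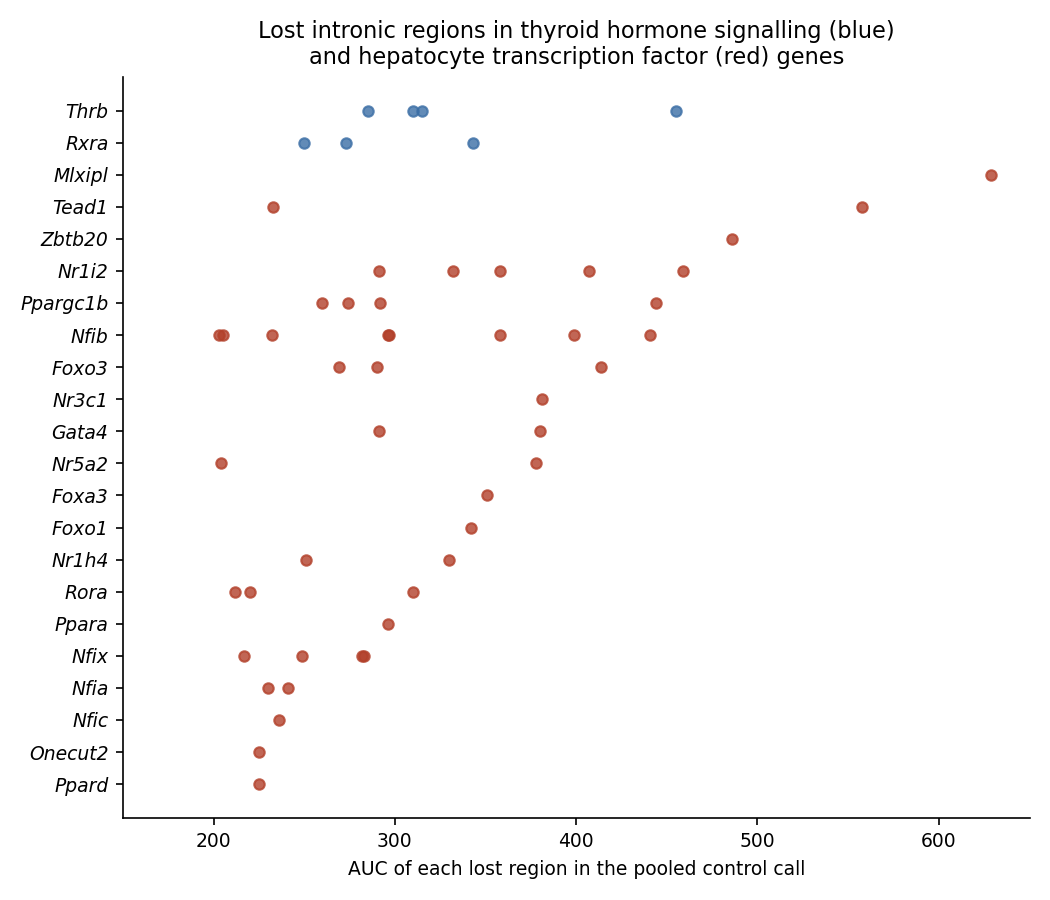
AUC of each lost intronic region 5 to 50 kb from a start in genes of thyroid hormone signalling (blue) and hepatocyte transcription factors (red), one row per gene shown, ordered by its highest value. Thrb reached 455, Mlxipl 629, and Nfib shows the most points, with 8 between 203 and 441.

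Metabolic gene lists held fewer members per gene, though more per Mb than protein-coding genes at large. In lipid metabolism 11 of 50 genes (22.0%) held 14 members, or 12.2 per Mb, beside 7.64% and 2.77 per Mb over all protein-coding genes. Besides Mgll at 781 these included Abca1, with areas of 237, 335 and 698, and Dgat2, the last enzyme of triglyceride synthesis, with 299 and 458. Single members lay in Acsl1 (fatty acid activation, 329), Acaca (acetyl-CoA carboxylase, 322), Gpam (glycerol acylation, 311), Cidec (lipid droplets, 311), Acly (acetyl-CoA supply, 285) and Lipc (hepatic lipase, 250). The elongase genes Elovl2 (300) and Elovl5 (230) held 1 each.

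In insulin and growth hormone signalling 13 of 41 genes (31.7%) held 17 members, or 7.97 per Mb. Over all protein-coding genes it was 7.64% and 2.77 per Mb. Insr, the insulin receptor gene, had an area of 438, and Irs1, its substrate, 228. Met, the receptor of hepatocyte growth factor, had 239 and 389, Igfbp2 382, and Igf1, the main growth hormone target of liver, 360 and 308. Members of this list also lay in Jak1 (283), Stat3 (322), Stat5b (300 and 300) and Bcl6 (286 and 299). Tsc1 (321), Mtor (317) and Prlr (304) also held 1 each.

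In glucose, glycogen and amino acid metabolism 7 of 39 genes (17.9%) held 10 members, or 9.27 per Mb, again beside 7.64% and 2.77 per Mb. Gbe1, the glycogen branching enzyme, had areas of 233 and 467, Slc2a2, the glucose transporter of hepatocytes, 441, and Pcx, the first enzyme of gluconeogenesis from pyruvate, 216, 238 and 329. Pfkfb3 (307), Ass1 (urea cycle, 274) and Mat1a (methionine activation, 209) held 1 each. Among drug, bile acid and transporter genes it was 8 of 55 (14.5%), with 10 members or 8.10 per Mb. Cyp27a1, a bile acid enzyme, had 244, 210 and 587 within its first intron, Aox3 545 and Por, the electron donor of cytochrome P450 enzymes, 410.

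Among chromatin regulators 7 of 55 genes (12.7%) held members. By members per Mb, at 4.06, this list stood closer to protein-coding genes at large than the lists above. Subunits of the SWI/SNF remodeller held 6 of the 10 members: Arid1a (423), Arid1b (393, 402 and 363) and Smarca4 (275 and 400). Hdac4 (232), Tet2 (229), Kdm4b (219) and Sirt1 (211) held 1 each. In the circadian list 2 of 16 genes (12.5%) held members, or 9.16 per Mb: Hlf with 396, 255 and 296, and Rora as above. Of the markers of other liver cells, 2 of 34 genes (5.88%) held members, or 1.62 per Mb, beside 7.64% and 2.77 per Mb over all protein-coding genes. With starts and exons of protein-coding genes only, the share turned to the other side, at 3 of 35 (8.57%) beside 7.75%. Its members lay in the endothelial genes Eng (349) and Pecam1 (278). List values are counts without a test, and how many open regions each list had in control liver was not analysed here.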

How the data were processed

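ATAC-seq reads of 4 control and 4 Alb-D2KO livers were processed by the authors with BWA 0.7.17 on mm10, FastQC, Picard and Genrich 0.6, per the submitters' notes. Per the study's methods, calling each sample alone found very few regions, which the authors judged not to come from accessible chromatin. These were merged over samples and excluded. Regions were then called on the pooled libraries of each genotype, and regions overlapping the other genotype's were removed. No region of the lists thus rests on a call in a single library. In the deposited lists, the signal is the area of the −log10 significance curve above the calling threshold (AUC), and the score is that area per bp times 1000, capped at 1000. The −log10 q of the summit, as deposited, was used to filter. The lists hold no reads, so depth per library is unknown and Wilson and Newcombe intervals cover counting error only.

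Regions were classed with GENCODE M21 (mm10; the methods name a later release). Sequence came from GRCm38.p6. Gene membership counted every overlapping body; for display the shortest coding host was used, with its longest transcript for intron numbers. AUC, width and GC were compared by Welch's test in scipy 1.17.1, Benjamini-Hochberg adjusted over 9 comparisons, in code tested on simulated data. GC and motifs were read within 100 bp of the summit. Members, the 9 gene lists (458 genes) and 19 motifs were chosen with earlier results of these data known. Named genes were the 10 members of highest AUC, the genes with most members, up to 4 genes of each list by AUC, the regions at each distance limit, the DR4 member and Dio2. The other listed genes holding a member and the printed sequences were picked after values were seen. Alternatives changed AUC, q, width, merging, annotation, the distance rule, window length and chromosomes. Some listed genes enter the counts but are not reported here by name.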

Additional observations from a re-analysis of the deposited data

How the results depend on the processing

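The number of members fell from 1587 to 578 with an AUC of at least 300 and to 979 with a q of at most 0.001, and stayed within 1.5 times of it in the other 9 settings, from 1415 to 2004, including the Gm20388 model left out (1577), which was chosen after seeing the data. With an AUC of at least 300, the share difference between the lists turned to −9.94 percentage points, the AUC difference from introns over 50 kb turned to 0.0067 on the log2 scale (n = 578 and 43 regions, adjusted p = 0.90), and the width difference from intergenic regions (0.0257) and the GC difference from introns over 50 kb (1.63 points) no longer passed the test. With protein-coding genes only, the width difference from introns over 50 kb turned to −0.0015 on the log2 scale, and by midpoint to −0.0061. By midpoint, the AUC (−0.035) and width (−0.0824) differences from introns within 5 kb came to pass the test. None of the reversed differences passed it in either setting. The other 41 of 48 alternatives to the 9 comparisons kept direction and call. Motif shares grew with the window: the nuclear receptor half-site was in 39.9% of whole regions and 16.8% of windows reaching 50 bp either side.

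No paired analysis was possible because the lists are pooled over animals. For the same reason leaving out an animal is not an option here, and no replicate error exists for any region. Most members lie near the smallest AUC called; the part of depth in being called lost was not tested. Whether kept control regions share the motifs or genes of lost ones was not analysed here.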

Other observations

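The 47 regions of the same class that were open only in Alb-D2KO liver had a median AUC of 230, from 200.5 to 482, and a median width of 268 bp, whereas the 1587 lost ones had 271 and 310 bp. An AUC of at least 300 was reached by 8 of the 47 (17.02%) and by 578 of the 1587 (36.4%). The areas come from separate pooled calls whose depth is unknown, so they are given side by side without a test. Ppargc1a, the gene of the coactivator PGC-1α, held one of them, with an AUC of 300.5 at 13.6 kb from a start, while its relative Ppargc1b held 4 lost regions of 260 to 444 and Ppargc1a no member.

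Of these 47 regions, 6 lay within 2.01 Mb of chromosome 4 (chr4:145440828-147452354), with areas of 200.5 to 482, in the models Gm26573, Platr16, Gm13147 and Gm26624. The same stretch held 0 lost members. Across the genome the median distance from a lost member to the nearest region open only in Alb-D2KO liver was 4196 kb, and 2 members had one within 10 kb and 24 within 100 kb.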
